A study of Arabidopsis thaliana with 4 samples.

Results

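The response of wild-type roots to aluminium was measured as the difference between 2 RNA sequencing libraries of Arabidopsis thaliana accession Col, 1 from seedlings kept with Al and 1 from seedlings kept without it. These are 2 of the 4 libraries of the series. The other 2 come from coi1-2, a line with a point mutation in COI1, the F-box receptor of the hormone jasmonate, with and without Al. Each library was made from the roots of about 500 seedlings, 6 days old, grown in a modified MGRL nutrient solution of 2% strength at pH 5.0 and 22 °C with 16 h of light and 8 h of dark, and then held in 10 µM AlCl3 (with Al) or 0 µM AlCl3 (without Al). The treatment protocol and the titles of the Al libraries give 6 h of exposure, whereas the text on the design of the series gives 24 h. The 0 h given in the titles of both libraries without Al differs from the protocol, which holds these seedlings in solution for 6 h as well. Time in solution and time of day therefore cannot be told apart from Al if those roots were taken at the start. Of 23381 loci listed, 16837 had at least 1 RPKM (reads per kilobase of transcript and 1e6 reads) in at least 1 of the Col libraries, and all of these are described here.

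Aluminium is toxic to roots in acid soil, where the dissolved ion binds to cell walls and stops elongation at the root tip. Arabidopsis roots respond by releasing malate and citrate, which bind the ion outside the cell, through the channel ALMT1 and a citrate transporter of the MATE family. The zinc finger factor STOP1 turns on ALMT1 and further genes, and transporters such as ALS3 and STAR1 add to tolerance inside the root.

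With 1 library on each side there is no replicate error and no test, and every difference is one between these libraries. Sizes are given as relative log2 ratios, that is, the log2 of (RPKM + 0.5) with Al over the same without Al, minus the median of that ratio over the 16837 loci, which was -0.60. The pseudocount of 0.5 understates the change of weakly read genes. A locus was called higher or lower when it differed by at least 2-fold from the median locus and its counting interval, an exact 95% Clopper-Pearson interval from the reads, lay on the same side of 0. The interval carries no pseudocount, so for genes of few reads it may not hold the ratio given with it. It covers counting error only and leaves out differences between roots and between library preparations. PCR copies are not independent molecules, so it may be too narrow even for counting error. By this rule 3764 loci (22.4%) were called higher with Al and 3358 (19.9%) lower, and these shares are the background for every count of genes below. Without the centring on the median the split was 1994 higher and 6169 lower. At least 4-fold, 1311 were higher and 677 lower, and at least 16-fold, 175 were higher and 11 lower.

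The libraries held 6.93 M reads with Al and 7.80 M without Al (M, 1e6), in which a floor of 3 reads equals 0.433 and 0.385 CPM (reads per 1e6 reads). Reads fell on 20301 loci with Al and on 21444 without Al. The 100 most-read loci took 30.0% of the reads with Al and 20.7% without Al. Reads had to be unique. The 3089 loci with several isoforms listed had a low median level (0.916 RPKM against 5.24 for the others), and whether reads shared by isoforms were lost there was not tested. STOP1, for which 2 isoforms are listed, had 0 reads in both Col libraries.

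**Figure D1:**
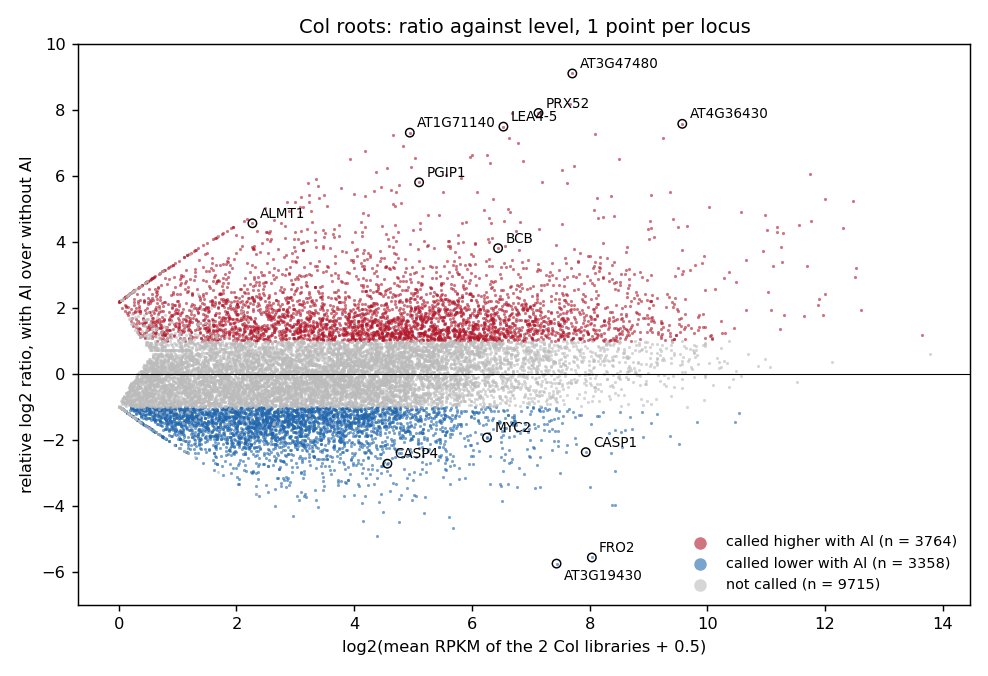
Relative log2 ratio (with Al over without Al, vertical axis) against the log2 mean RPKM of the Col libraries (horizontal axis), 1 point per locus. Red points were called higher with Al (3764), blue points lower (3358), grey points neither (9715), and circled points are genes named in the text.

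Transcript length moved with the ratio and bears on many of the gene groups. When the loci were ordered by transcript length and cut into 5 groups of like size, the median relative ratio was 0.999 in the shortest group (75 to 855 nt), 0.51, 0.06 and -0.32 in the next ones, and -0.89 in the longest (2122 to 16347 nt). In the shortest group 45.7% of loci were called higher and 5.75% lower, whereas in the longest 3.95% were called higher and 44.4% lower. The covered part of a transcript in the longest group had a median of 44.4% with Al and 87.0% without Al. At an equal 100 to 200 reads, transcripts of 2000 to 3000 nt were covered to 76.1% with Al and 84.6% without Al, and transcripts under 1000 nt to 89.8% with Al and 89.7% without Al. In coi1-2 the trend ran the same way with a smaller span, 0.49 in the shortest group and -0.53 in the longest. Its part in any single result was not tested. A second ratio, in which the running median over loci of like length took the place of the overall median, is therefore given as "length-adjusted" beside each group. It called 2700 loci higher (16.0%) and 2666 lower (15.8%), and 2239 of the higher and 1873 of the lower calls were shared with the first rule.

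**Figure D2:**
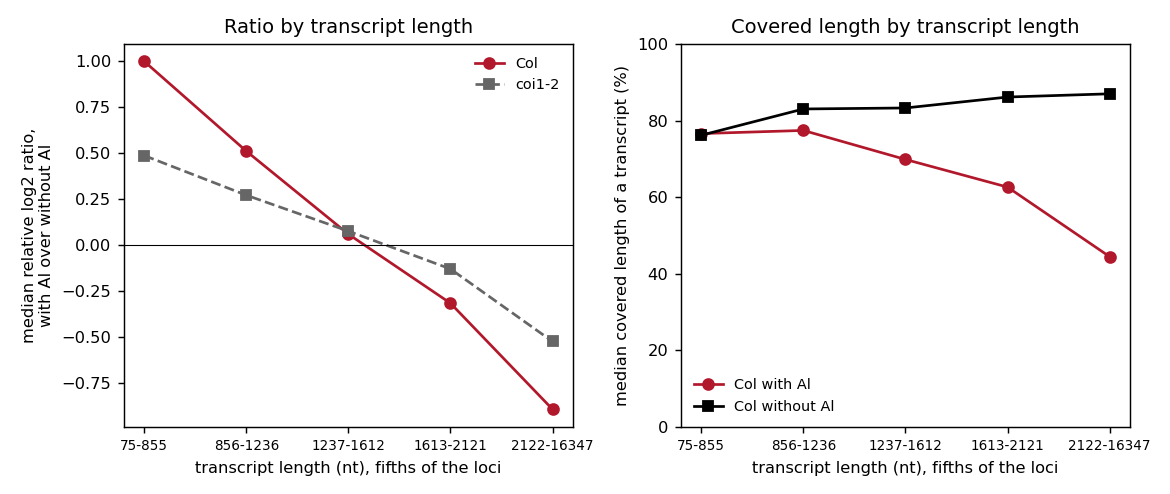
Left, median relative log2 ratio by transcript length, in 5 groups, in Col (red) and coi1-2 (grey). Right, median covered percent of a transcript in Col with Al (red) and without Al (black), which part ways from 76.6% and 76.2% in the shortest group to 44.4% and 87.0% in the longest.

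The 300 bases before the annotated gene start (TAIR10.1, sequences from RefSeq) are shown for 8 genes at both ends of the response: the malate channel ALMT1, the gene with the highest ratio (AT3G47480), the peroxidase AT4G36430, the pectinase inhibitor PGIP1, the dehydration protein LEA4-5, the ferric reductase FRO2, the gene with the lowest ratio (AT3G19430) and the Casparian strip protein CASP4. They were taken by role and by ratio, whatever motifs they hold, and the first 5 were called higher and the last 3 lower. Capitals mark matches, on either strand, to 8 motifs searched: the W-box (TTGACC or TTGACT), the TGA element (TGACG), the G-box (CACGTG), the GCC-box (GCCGCC), the CAMTA element (CGCGTT), the telo-box (AAACCCTA), site II (TGGGCC) and the MSA element (TCAACGG or CCAACGG). Matches that overlap are merged.
ALMT1 (chr1:2658302-2658601, plus strand): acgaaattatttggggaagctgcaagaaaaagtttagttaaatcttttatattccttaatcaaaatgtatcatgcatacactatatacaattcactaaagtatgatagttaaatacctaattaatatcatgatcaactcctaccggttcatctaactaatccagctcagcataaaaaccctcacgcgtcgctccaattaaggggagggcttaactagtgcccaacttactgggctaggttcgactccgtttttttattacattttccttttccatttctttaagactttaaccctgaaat
AT3G47480 (chr3:17497165-17497464, minus strand): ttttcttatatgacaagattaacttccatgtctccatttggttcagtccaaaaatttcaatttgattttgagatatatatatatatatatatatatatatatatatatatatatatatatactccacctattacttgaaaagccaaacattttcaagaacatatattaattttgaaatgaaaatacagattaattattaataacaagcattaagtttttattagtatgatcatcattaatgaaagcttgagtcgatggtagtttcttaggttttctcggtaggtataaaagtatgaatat
AT4G36430 (chr4:17206034-17206333, minus strand): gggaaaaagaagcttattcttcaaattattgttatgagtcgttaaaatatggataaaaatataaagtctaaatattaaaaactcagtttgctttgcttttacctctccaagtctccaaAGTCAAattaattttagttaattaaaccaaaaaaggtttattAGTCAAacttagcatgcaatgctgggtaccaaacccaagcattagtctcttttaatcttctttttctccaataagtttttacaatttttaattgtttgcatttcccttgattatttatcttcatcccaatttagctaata
PGIP1 (chr5:2132050-2132349, plus strand): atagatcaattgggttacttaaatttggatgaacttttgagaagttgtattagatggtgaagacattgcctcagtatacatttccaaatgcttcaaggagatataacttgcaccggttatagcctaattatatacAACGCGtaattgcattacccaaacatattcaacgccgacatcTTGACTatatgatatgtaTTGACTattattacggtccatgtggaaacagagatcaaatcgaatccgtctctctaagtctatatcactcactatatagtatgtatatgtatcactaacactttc
LEA4-5 (chr5:2090431-2090730, minus strand): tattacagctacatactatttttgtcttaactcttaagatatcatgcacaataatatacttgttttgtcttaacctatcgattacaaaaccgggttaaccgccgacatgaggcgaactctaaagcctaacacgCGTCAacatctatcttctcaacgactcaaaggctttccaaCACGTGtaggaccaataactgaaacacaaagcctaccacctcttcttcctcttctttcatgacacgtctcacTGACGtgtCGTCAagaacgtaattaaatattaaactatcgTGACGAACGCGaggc
FRO2 (chr1:208695-208994, plus strand): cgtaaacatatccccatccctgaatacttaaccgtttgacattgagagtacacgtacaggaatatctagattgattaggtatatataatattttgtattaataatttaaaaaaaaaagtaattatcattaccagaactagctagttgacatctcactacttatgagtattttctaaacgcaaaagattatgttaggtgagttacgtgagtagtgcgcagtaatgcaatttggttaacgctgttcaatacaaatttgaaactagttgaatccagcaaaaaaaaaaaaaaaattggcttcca
AT3G19430 (chr3:6738519-6738818, minus strand): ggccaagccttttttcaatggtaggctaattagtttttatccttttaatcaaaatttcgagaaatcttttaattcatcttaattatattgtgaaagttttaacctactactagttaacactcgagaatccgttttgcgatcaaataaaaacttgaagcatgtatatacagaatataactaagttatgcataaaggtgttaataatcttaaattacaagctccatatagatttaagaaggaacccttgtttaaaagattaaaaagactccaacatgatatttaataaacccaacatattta
CASP4 (chr5:1876834-1877133, plus strand): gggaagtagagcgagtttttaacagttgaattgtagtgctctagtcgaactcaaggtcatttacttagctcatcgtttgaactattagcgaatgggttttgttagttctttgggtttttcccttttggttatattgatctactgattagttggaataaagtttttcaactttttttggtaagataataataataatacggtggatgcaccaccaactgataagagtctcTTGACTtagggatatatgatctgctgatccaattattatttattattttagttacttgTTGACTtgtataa

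AT4G36430, PGIP1 and CASP4 held 2 W-boxes each, so the motif stood on both sides of the response, and LEA4-5 held a G-box and TGA elements. The other 4 held none of the 8 motifs in this window. Over all called genes the W-box, the site bound by WRKY factors, was found in 34.2% of the 3706 promoters of genes called higher and in 34.9% of the 3352 of genes called lower, against 33.0% of the 16695 promoters of all loci past the filter. Among the 15 highest genes 7 held a W-box, and among the 15 lowest 6. It was found in 86 of the 175 promoters of genes at least 16-fold higher (49.1%) and in 35.2% of the 108 promoters of genes at least 8-fold lower. These are 4 of 48 shares computed for 8 motifs in 6 sets, with fold limits chosen after the values were seen, and they are descriptions of sequence only.

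At the top of the ratios stood AT3G47480, a gene for a calcium-binding EF-hand protein, read at 415.9 RPKM with Al and 0.647 RPKM without Al (relative log2 ratio 9.11, counting interval 8.38 to 12.21). AT1G21525, annotated as a pseudogene, came next with 401.7 RPKM with Al and 1.59 RPKM without Al (8.19). LEA4-5, a late embryogenesis abundant protein of drying tissue, was read at 183.4 RPKM with Al and 1.05 RPKM without Al (7.49, 7.00 to 9.37). These were rare transcripts without Al, with 3, 7 and 7 reads. AT1G71140, a member of the MATE efflux family, had 647 reads with Al and 1 read without Al (7.31). NHL10, a gene related to the defence protein NDR1, was read at 542.5 RPKM with Al and 4.79 RPKM without Al (7.29, 6.93 to 7.97). AT5G16010, annotated as a steroid dehydrogenase, reached 1199 RPKM with Al, against 12.3 RPKM without Al (7.15). All 15 genes of the highest rank were also higher in coi1-2, with relative ratios from 4.87 to 7.90.

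At the other end the changes were smaller. FRO2, the reductase that frees iron for uptake, was read at 6.71 RPKM with Al and 517.9 RPKM without Al (-5.57, -5.95 to -5.40). AT5G60520, related to late embryogenesis abundant proteins, had 2.11 RPKM with Al and 99.6 RPKM without Al (-4.66). AT4G15390, an acyl-transferase, had 27.2 RPKM with Al and 660.4 RPKM without Al (-3.98, -4.18 to -3.83). GSTF14, a glutathione S-transferase, had 26.4 RPKM with Al and 641.3 RPKM without Al (-3.98, -4.22 to -3.79), opposite to most of its family. In coi1-2 the 15 lowest genes of Col had relative ratios between -5.94 and -3.19.

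**Figure D3:**
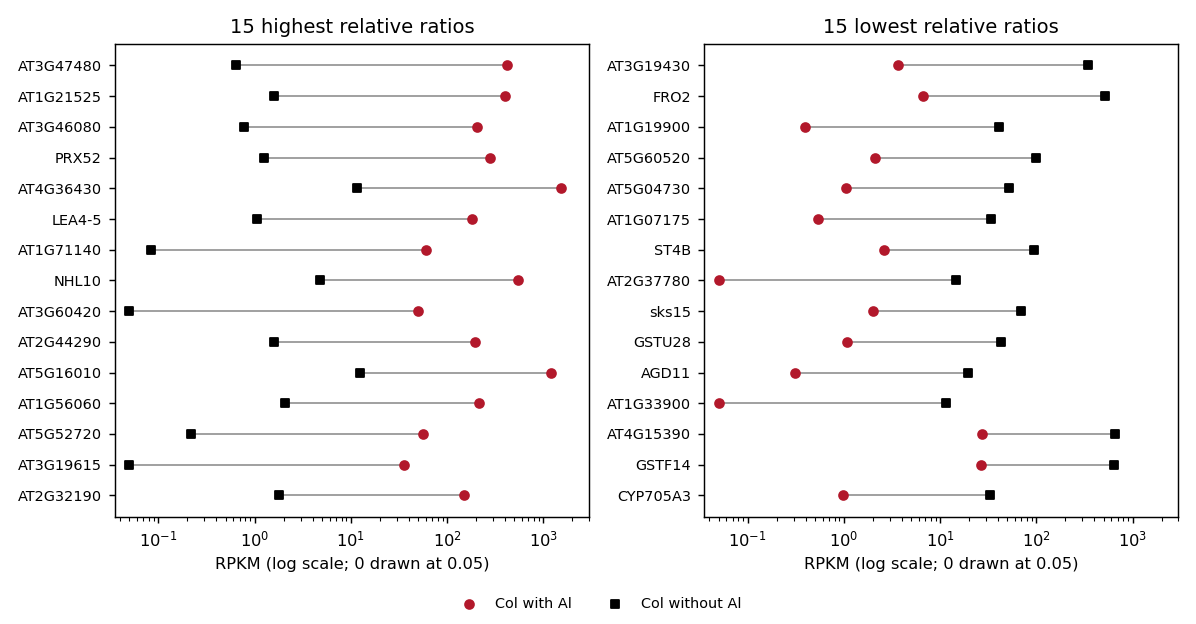
RPKM (log axis, 0 drawn at 0.05) with Al (red circles) and without Al (black squares) for the 15 highest (left) and 15 lowest (right) relative ratios among loci with at least 5 RPKM in the higher library. Genes run down the page by relative ratio, which carries the pseudocount, from AT3G47480 (415.9 against 0.647 RPKM) on the left and AT3G19430 (3.69 against 342.1 RPKM) on the right, so the drawn distance does not follow the same order.

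On the list of genes linked to Al resistance and targets of STOP1, more were called higher than lower, 7 against 2 of the 18 past the filter (19 listed, median relative ratio 0.54, where the median over all loci is 0 by construction). The list was not split by whether a member raises or lowers resistance, so its counts give no direction of resistance. PGIP1, which inhibits pectin-degrading enzymes, was read at 66.4 RPKM with Al and 1.32 RPKM without Al (5.81, 5.44 to 7.22). Its 538 reads with Al covered 20.6% of the transcript and its 12 without Al 12.6%. Whether reads shared with similar genes were lost there was not tested. ALMT1 had 93 reads with Al and 1 read without Al, or 8.57 and 0.0819 RPKM (4.56). These were the steepest members. BCB, a blue copper-binding protein, was read at 156.7 RPKM with Al and 16.5 RPKM without Al (3.81). GDH1, a subunit of glutamate dehydrogenase, had 201.0 RPKM with Al and 32.7 RPKM without Al (3.21). The vacuolar malate carrier TDT reached 52.5 RPKM with Al, against 12.9 RPKM without Al (2.59), and ALS3 38.6 RPKM with Al, against 12.3 RPKM without Al (2.22). STAR1, the ATP-binding partner of ALS3, was not called (30.6 RPKM with Al and 31.2 RPKM without Al), nor was the vacuolar transporter ALS1 (10.2 RPKM with Al and 12.9 RPKM without Al). The wall enzyme XTH15 (-1.75) and the kinase CIPK23 (-1.16) were called lower. With the length adjustment 8 were higher and 1 lower, and CIPK23 was not called. The MATE-family gene AT1G51340 was read at 0.154 RPKM with Al and 0.206 RPKM without Al, below the filter.

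Of 21 enzymes of malate and citrate metabolism 4 were called higher and 7 lower. These transcripts are long (median 2176 nt), and with the length adjustment 4 were higher and 2 lower, so the balance of the list turned. PPC3, a phosphoenolpyruvate carboxylase that fixes carbon towards malate, was read at 19.8 RPKM with Al and 183.4 RPKM without Al (-2.58, -2.75 to -2.47). PPC1 (-2.24) and PPC2 (-1.49) were also called lower, but PPC2 was not called after the length adjustment. PPC1, with 3 isoforms listed, rests on 3 reads with Al and 102 without Al. These covered at most 1.53% of an isoform with Al and 4.57% without Al. In coi1-2 PPC1 was not called (-0.94). NADP-ME2, a cytosolic enzyme that breaks malate down to pyruvate, was read at 700.6 RPKM with Al and 307.0 RPKM without Al (1.79, 1.74 to 1.84). The peroxisomal citrate synthases CSY2 (1.42) and CSY3 (1.58) were higher, whereas the mitochondrial CSY4 was not called (1.51 RPKM with Al and 5.21 RPKM without Al).

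Genes of antioxidant enzymes and of oxidative stress had higher calls and no lower ones. Their median length was 994.5 nt, which falls in a length group (856 to 1236 nt) where 33.0% of all loci were called higher. Of 18 such genes 11 were called higher and 0 lower (median 1.398), and 7 and 0 with the length adjustment (median 0.88). GSTF8, a glutathione S-transferase, took 68809 reads with Al and 12255 without Al, or 5726 and 905.9 RPKM (3.26, 3.24 to 3.29). GSTU24 was read at 210.6 RPKM with Al and 12.7 RPKM without Al (4.60), and the zinc finger gene ZAT12 at 498.7 RPKM with Al and 82.0 RPKM without Al (3.20). The catalase gene CAT1 was higher (2.04), while CAT2 was not called (8.35 RPKM with Al and 10.7 RPKM without Al), nor were the superoxide dismutases CSD2, FSD1 and MSD1 (0.57 to 0.62). Across the whole family of glutathione S-transferases 27 of 46 were higher and 5 lower (22 and 6 length-adjusted). The family overlaps the list above, as with GSTU24, so these counts are not separate from it. Its summed RPKM came to 18584 with Al and 4103 without Al. GSTF2 was read at 6726 RPKM with Al and 152.0 RPKM without Al (6.06), and GSTU22 at 230.0 RPKM with Al and 3.51 RPKM without Al (6.45).

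Class III peroxidases, which use hydrogen peroxide to cross-link the wall, moved both ways. Of 57 past the filter 22 were higher and 11 lower (20 and 15 length-adjusted). AT4G36430 was read at 1512 RPKM with Al and 11.5 RPKM without Al (7.58, 7.37 to 7.93). PRXCB had 638.6 RPKM with Al and 22.8 RPKM without Al (5.38), and its near copy PRXCA 19.8 RPKM with Al and 0.0939 RPKM without Al (5.70), so reads of the pair may be split. AT3G01190 was lower, with 194.1 RPKM with Al and 1279 RPKM without Al (-2.11). The summed level of the family was alike, 10475 RPKM with Al and 11185 RPKM without Al.

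Several genes of salicylate signalling and of indole phytoalexins were higher. On the pattern immunity list 19.0% were called higher and 28.6% lower, against 22.4% and 19.9% of all loci. On the salicylate list 6 of 14 were called higher and 0 lower (7 and 0 length-adjusted). PBS3, an enzyme of salicylate synthesis, was read at 10.5 RPKM with Al and 0.324 RPKM without Al (4.34), WRKY70 at 39.6 RPKM with Al and 5.77 RPKM without Al (3.28), and FMO1 at 20.3 RPKM with Al and 7.42 RPKM without Al (2.00). The marker genes PR2 and PR5 stayed at 2 reads or fewer in both libraries. Of 11 genes for camalexin and related compounds 5 were higher and 2 lower in both versions. Their median relative ratio was -0.18, and 0.89 after the length adjustment. GSTF6 was read at 283.7 RPKM with Al and 7.09 RPKM without Al (5.83), CYP71A12 at 43.0 RPKM with Al and 6.46 RPKM without Al (3.24), and PAD3, the last enzyme of camalexin synthesis, at 10.5 RPKM with Al and 4.94 RPKM without Al (1.62). The 2062 reads of GSTF6 with Al covered 32.7% of its transcript and the 58 without Al 21.9%. Whether reads it shares with similar genes were lost was not tested. CYP79B3, at the entry of the pathway, was lower (15.6 RPKM with Al and 108.8 RPKM without Al, -2.17). Of 21 genes of pattern immunity 4 were higher, among them the kinases BIK1 (1.70) and MPK6 (1.36), and 6 lower, among them the receptor PEPR1 (-2.17) and the oxidase RBOHD (-1.32), with 4 and 4 after the length adjustment, when RBOHD was not called.

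Many genes of dehydration and of breakdown were higher. On the abscisic acid, cold and dehydration list 11 of 19 were higher and 2 lower (13 and 2 length-adjusted), led by LEA4-5. ANAC019, a NAC factor, was read at 13.6 RPKM with Al and 0.200 RPKM without Al (4.94), the phosphatase gene HAI1 at 5.39 RPKM with Al and 0.393 RPKM without Al (3.33), and KIN1 at 145.6 RPKM with Al and 37.8 RPKM without Al (2.53). The dehydrin genes COR47 (1032 RPKM with Al and 1752 RPKM without Al, not called) and ERD10 (-1.28) did not follow. Of 22 genes of autophagy and starvation 15 were higher and 0 lower (10 and 0 length-adjusted). NBR1, a cargo receptor of autophagy, was read at 760.6 RPKM with Al and 244.6 RPKM without Al (2.24, 2.19 to 2.29). Of the 9 genes for ATG8, the small protein that coats the autophagosome, 8 were called higher before the length adjustment, which is given for the whole list only. ATG8D had the highest ratio of these (31.1 RPKM with Al and 3.32 RPKM without Al, 3.65, length-adjusted 2.83). Its transcript of 827 nt falls in the shortest length group, where 45.7% of all loci were called higher. With 2 isoforms listed, its reads covered at most 13.7% of an isoform with Al and 11.9% without Al. ORE1, a NAC factor of leaf senescence, was read at 99.93 RPKM with Al and 7.78 RPKM without Al (4.20). Of 8 genes of alternative respiration 4 were higher and 0 lower (5 and 0 length-adjusted), with the alternative oxidases AOX1A (92.3 RPKM with Al and 25.5 RPKM without Al, 2.44) and AOX1D (43 reads with Al and 0 without Al, at least 24.5-fold higher relative to the median locus, and at least 16.1-fold in CPM without centring, when 3 reads per library are taken as the floor).

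On the list for the unfolded protein response of the endoplasmic reticulum 3 of 16 genes were higher and 6 lower (4 and 5 length-adjusted). Among those called, the factor genes BZIP60 (492.4 RPKM with Al and 79.4 RPKM without Al, 3.23) and BZIP28 (107.9 RPKM with Al and 64.2 RPKM without Al, 1.35) were higher. Of the lower ones CRT1B, a calreticulin, was read at 93.1 RPKM with Al and 655.0 RPKM without Al (-2.21), CNX1, a calnexin, at 115.1 RPKM with Al and 571.3 RPKM without Al (-1.70), and BIP2 at 4.78 RPKM with Al and 45.9 RPKM without Al (-2.53). BIP1 and BIP2 are near copies, and the split of their reads is uncertain.

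Wall barriers moved in opposite directions. Suberin is a waxy polymer laid on endodermal cells, and 14 of its 18 listed genes were called higher and 1 lower in both versions (median 1.44, length-adjusted 1.63). ABCG6, an exporter of suberin precursors, was read at 390.4 RPKM with Al and 56.2 RPKM without Al (3.39, 3.31 to 3.49), GPAT5, an acyltransferase, at 134.2 RPKM with Al and 42.1 RPKM without Al (2.26), and the regulator MYB41 at 29.7 RPKM with Al and 4.29 RPKM without Al (3.26). CER4 was the lower one (0.338 RPKM with Al and 13.1 RPKM without Al, -3.41). The Casparian strip is the lignin band of the same cell layer, and 7 of its 10 genes were lower and 0 higher (median -1.96, and 6 and 0 with a median of -2.78 after the length adjustment). CASP1, a membrane scaffold of the strip, was read at 54.7 RPKM with Al and 433.6 RPKM without Al (-2.37, -2.55 to -2.22), and PER64, its peroxidase, at 9.28 RPKM with Al and 148.9 RPKM without Al (-3.33, -3.75 to -3.08). The regulators MYB36 (11.05 RPKM with Al and 26.6 RPKM without Al), SHR and SCR were not called. In bulk roots, fewer cells of a type and less RNA per cell cannot be told apart. General lignin genes gave 3 higher and 5 lower of 18 (4 and 4 length-adjusted).

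Root hair genes and genes of cell division had more lower than higher calls. Of 20 root hair genes 11 were called lower and 0 higher (13 and 1 length-adjusted). EXPA7, a hair expansin, was read at 8.66 RPKM with Al and 100.8 RPKM without Al (-2.86), the growth regulator RSL2 at 6.11 RPKM with Al and 54.3 RPKM without Al (-2.45), and the oxidase RBOHC at 4.82 RPKM with Al and 38.7 RPKM without Al (-2.28). The wall protein genes PRP3 (353.1 RPKM with Al and 545.4 RPKM without Al) and LRX1 (124.6 RPKM with Al and 229.9 RPKM without Al) were not called. Of 17 genes of mitosis and cytokinesis 11 were lower and 0 higher (12 and 0 length-adjusted). The syntaxin of cell plate formation KN was read at 5.33 RPKM with Al and 28.9 RPKM without Al (-1.73), and the mitotic cyclin CYCB1;2 at 4.90 RPKM with Al and 23.3 RPKM without Al (-1.54). The kinase genes CDKB1;1 and CDKB2;2 were not called (0.44 and 0.69). For DNA replication 5 of 10 were lower and 0 higher, and 3 and 0 with the length adjustment. Of 13 DNA damage genes 4 were lower and 2 higher, but 0 lower and 2 higher after the length adjustment, and the higher ones were the cell cycle inhibitors SMR5 (34.6 RPKM with Al and 6.27 RPKM without Al, 2.98) and SMR7 (21.4 RPKM with Al and 6.35 RPKM without Al, 2.28). None of 8 xylem genes was called.

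Genes of photosynthesis were read more in the Al root library. Of 21 such genes 19 were called higher and 0 lower (median 2.41, and 16 and 0 with a median of 2.03 after the length adjustment), and their summed level was 784.6 RPKM with Al and 231.5 RPKM without Al. LHCB1.3, a light-harvesting protein, was read at 218.5 RPKM with Al and 29.7 RPKM without Al (3.46, 3.28 to 3.68), and LHCB1.2 at 52.5 RPKM with Al and 1.005 RPKM without Al (5.74). The LHCB1 and RBCS genes are near copies, so the split within each is uncertain. The regulator GLK2 (4.21 RPKM with Al and 4.84 RPKM without Al) and the enzyme gene HEMA1 (15.03 RPKM with Al and 43.6 RPKM without Al) were not called. Whether shoot material was present in the root samples was not tested.

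**Figure D4:**
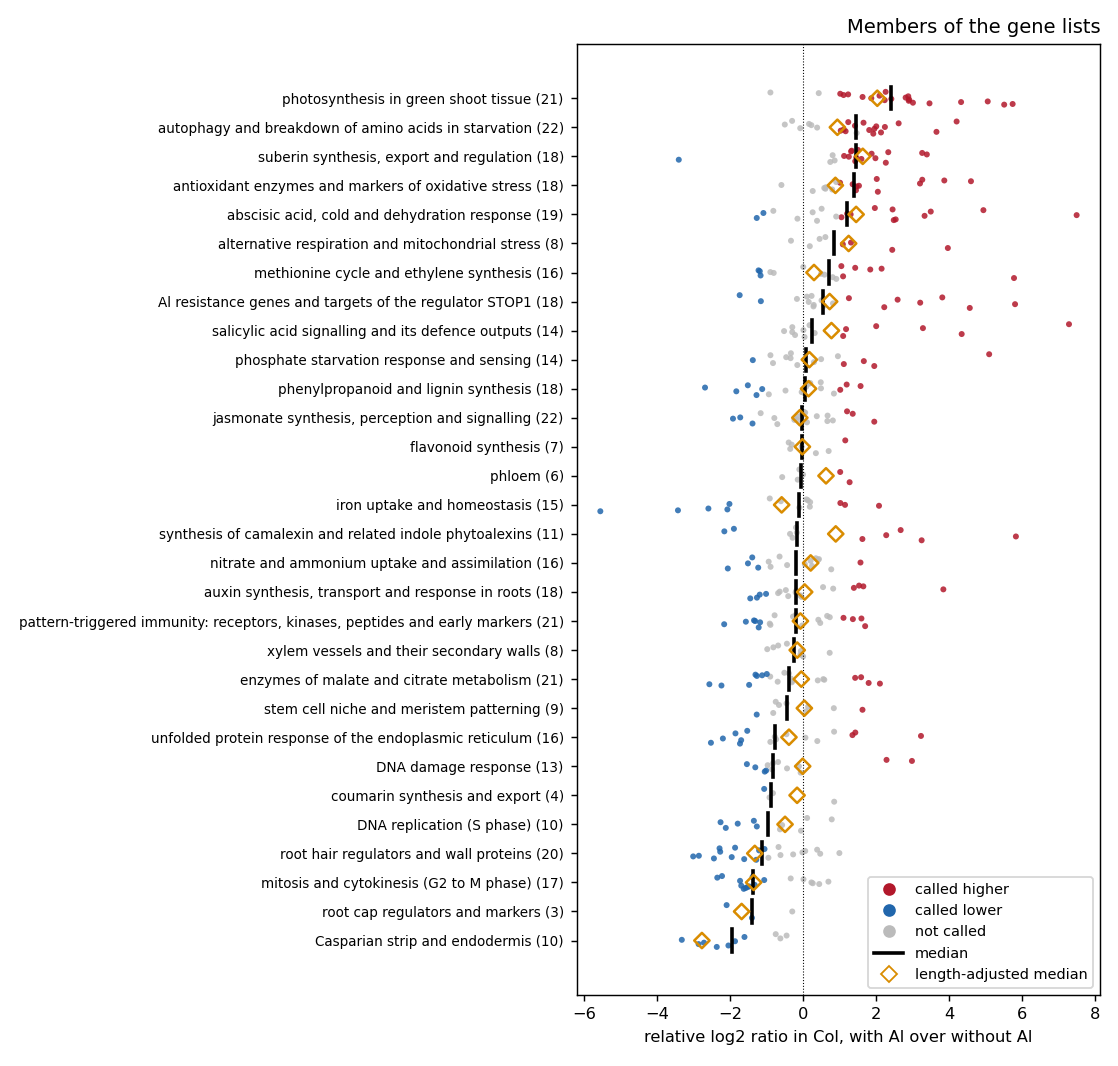
Relative log2 ratio (with Al over without Al) of each member past the filter on the 30 gene lists, with the number of members in brackets. Red points were called higher, blue lower, grey neither, black bars are medians and orange diamonds length-adjusted medians. Photosynthesis genes lie farthest to the right (median 2.41) and Casparian strip genes farthest to the left (-1.96).

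Of 15 genes of iron uptake and balance 3 were higher and 5 lower (4 and 5 length-adjusted), with a median of -0.11. The lower ones included FRO2, and the transporter IRT1 was read at 11.96 RPKM with Al and 204.4 RPKM without Al (-3.44) and the regulator FIT1 at 17.8 RPKM with Al and 117.1 RPKM without Al (-2.08). The ferritin gene FER1, which stores iron, was higher (231.0 RPKM with Al and 158.6 RPKM without Al, 1.14), as was the transporter OPT3 (14.0 RPKM with Al and 4.72 RPKM without Al, 2.08). For phosphate 4 of 14 were higher and 1 lower (3 and 0 length-adjusted), with the ribonuclease gene RNS1 at 21.8 RPKM with Al and 0.491 RPKM without Al (5.10) and the non-coding RNA IPS1 at 2313 RPKM with Al and 911.2 RPKM without Al (1.95, not called after the length adjustment). For nitrogen 1 of 16 was higher and 4 were lower, among them the nitrate transporter NRT1.1 (100.1 RPKM with Al and 359.5 RPKM without Al, -1.24, not called length-adjusted), but after the length adjustment 3 were higher and 2 lower.

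The hormone lists held calls in both directions, as did all loci (22.4% higher and 19.9% lower). The shares called higher and lower were 22.2% and 22.2% for auxin and 13.6% and 13.6% for jasmonate. For the methionine cycle and ethylene synthesis they were 37.5% and 18.75%. The auxin shares lay near those over all loci and the jasmonate shares below them, so no direction is given for these 2 lists. Of 18 auxin genes 4 were higher and 4 lower (3 and 2 length-adjusted), with GH3.3, which conjugates auxin, at 17.9 RPKM with Al and 1.45 RPKM without Al (3.84) and TAA1, which makes it, at 4.02 RPKM with Al and 18.3 RPKM without Al (-1.46). Of 16 genes of the methionine cycle and ethylene synthesis 6 were higher and 3 lower (4 and 1 length-adjusted). ARD3, an acireductone dioxygenase of that cycle, had 107 reads with Al and 0 without Al, at least 61.0-fold higher relative to the median locus and 40.2-fold without centring by the same floor. ACS7 (1.84) and ACS6 (-1.23), both synthases of the ethylene precursor, were called in opposite directions, but ACS6 was not called after the length adjustment. Of 22 jasmonate genes 3 were higher and 3 lower (1 and 3 length-adjusted). The factor genes MYC2 (22.1 RPKM with Al and 129.8 RPKM without Al, -1.93) and MYC4 (3.51 RPKM with Al and 19.7 RPKM without Al, -1.73) were lower. COI1 itself was not called (19.6 RPKM with Al and 33.9 RPKM without Al). Small lists gave 1 higher and 0 lower of 7 for flavonoids, 0 and 1 of 4 for coumarins, 0 and 2 of 3 for the root cap, 1 and 1 of 9 for the stem cell niche (1 and 0 length-adjusted), and 2 and 0 of 6 for phloem (1 and 0).

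Among whole families, of 54 lipid transfer and related proteins 35 were higher and 5 lower (24 and 10 length-adjusted), and their summed level was 17198 RPKM with Al and 3552 RPKM without Al. Of 77 ERF and DREB factors 37 were higher and 8 lower (26 and 16 length-adjusted), and of 61 NAC factors 22 and 4 (21 and 5), with NAC042 at 47.5 RPKM with Al and 1.02 RPKM without Al (5.58). Of 56 WRKY factors 19 were higher and 7 lower (17 and 10), with WRKY45 at 64.6 RPKM with Al and 3.65 RPKM without Al (4.57). Pectate lyases and polygalacturonases, which cut pectin, gave 4 higher and 21 lower of 43 (3 and 15). This family was taken by annotated name, and its highest member was PGIP1 (5.81), an inhibitor of such enzymes and not one of them. Heat shock proteins gave 5 higher and 18 lower of 52 (3 and 12), with HSP60 at 16.95 RPKM with Al and 218.2 RPKM without Al (-3.05). Chitinases gave 11 higher and 6 lower of 21 (9 and 6), MATE efflux proteins 9 and 5 of 31 (10 and 5), XTH wall enzymes 11 and 8 of 27 (10 and 8), extensins and arabinogalactan proteins 26 and 11 of 74 (17 and 15), and MYB factors 20 and 11 of 71 (15 and 12). Cytochrome P450 enzymes gave 28 higher and 42 lower of 134 (32 and 33), UDP-glycosyltransferases 15 and 19 of 86 (18 and 18), pectin methylesterases and their inhibitors 10 and 15 of 49 (6 and 13), aquaporins 9 and 9 of 27 (7 and 10), and expansins 3 and 4 of 19 (3 and 5).

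Other families turned or weakened with the length adjustment. Of 319 ribosomal protein genes, whose transcripts are short (median 800 nt), 82 were higher and 23 lower, but 7 and 52 after the length adjustment, while their summed level was 66442 RPKM with Al and 66166 RPKM without Al. Core histones gave 7 higher and 4 lower of 44 (2 and 17 length-adjusted), calmodulins and their relatives 2 and 0 of 17 (2 and 5), and cysteine-rich receptor-like kinases 3 and 6 of 13 (3 and 2). Kinesins and MAP65 proteins, with long transcripts (median 2990.5 nt), had 0 higher and 18 lower of 20, and 1 and 5 after adjustment, where 15.8% of all loci were lower. Their median ratio kept its sign but shrank, from -1.46 to -0.64 after the adjustment. No direction is given for these families.

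**Figure D5:**
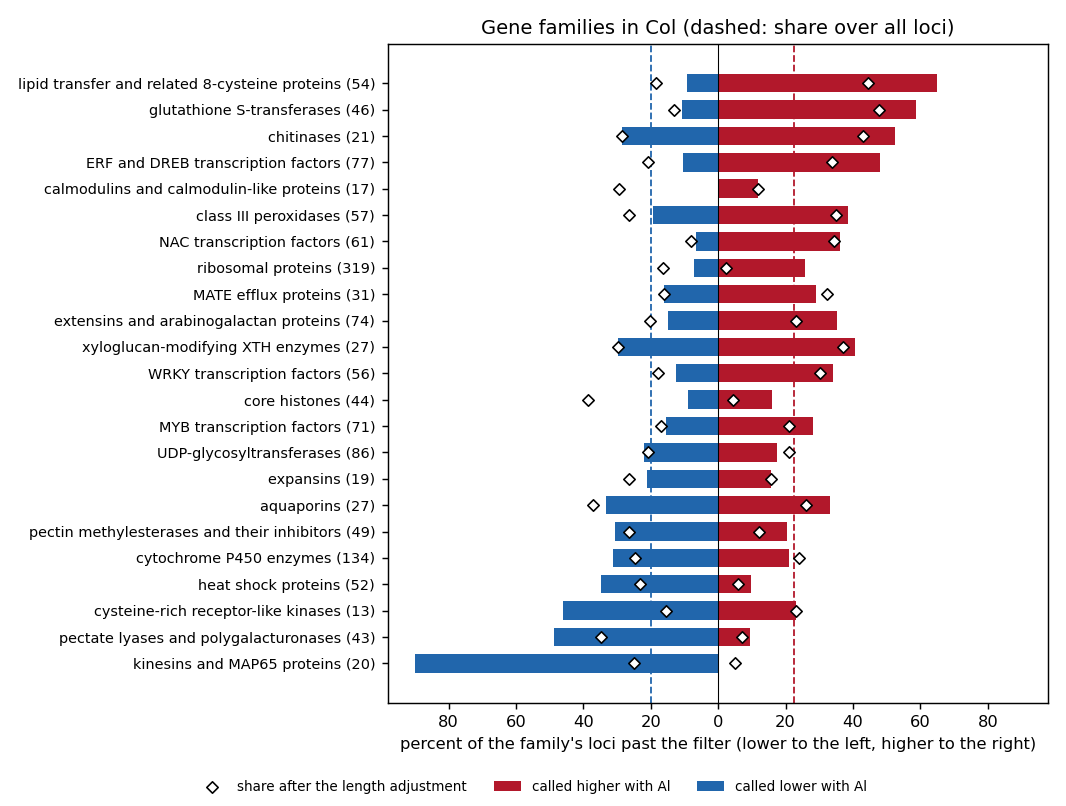
Percent of each family's loci past the filter called higher (red, right) and lower (blue, left) with Al, with the number of loci in brackets. Diamonds give the same shares after the length adjustment and dashed lines the shares over all loci (22.4% and 19.9%). Lipid transfer proteins stand farthest to the right and kinesins and MAP65 proteins farthest to the left.

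Several abundant transcripts were among those with the largest gains in CPM, though their part of the whole gain was not computed. GSTF8 took 0.993% of the reads with Al and 0.157% without Al, and GSTF2 0.665% with Al and 0.0150% without Al. Besides GSTF8 and GSTF2, AT4G33610, a glycine-rich protein, was read at 10889 RPKM with Al and 434.2 RPKM without Al (5.25), AGP2, an arabinogalactan protein of the wall, at 9418 RPKM with Al and 667.5 RPKM without Al (4.42), and RD19, a cysteine protease, at 6395 RPKM with Al and 1808 RPKM without Al (2.42). EXT3, an extensin and the most-read gene of the Col libraries, was at 14068 RPKM with Al and 14089 RPKM without Al. Ribosomal RNA also took more reads: the nuclear locus AT3G41768 had 0.692% of the reads with Al and 0.0509% without Al, and the mitochondrial locus ATMG00020 had 1.43% with Al and 0.631% without Al. The part of RNA quality in the ratios was not tested.

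Some loci were read in 1 Col library only. With Al and not without Al there were 873, of which 20 had at least 20 reads, and the reverse held for 2016, of which 68 had at least 20 reads. AT5G19880, a peroxidase, had 255 reads with Al and 0 without Al, at least 145.3-fold higher relative to the median locus by the floor of 3 reads per library and 95.7-fold without centring. The ubiquitin ligase gene PUB54 had 130 reads with Al and 0 without Al, at least 74.1-fold higher relative to the median locus and 48.8-fold without centring. In the other direction AT2G37780, a zinc-binding C1 domain protein, had 0 reads with Al and 98 without Al, at least 19.1-fold lower relative to the median locus and 29.0-fold without centring.

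The libraries of coi1-2 are separate from those of Col. Of 16343 loci past the filter in both genotypes, 2098 (12.8%) were called higher with Al in both and 1874 (11.5%) lower in both, and 10 were called in opposite directions, of which 7 had no call in Col after the length adjustment. Suberin genes had a median of 1.44 in Col and 1.55 in coi1-2, Casparian strip genes -1.96 and -2.05, and root hair genes -1.14 and -2.10. Photosynthesis genes had 2.41 in Col and 1.28 in coi1-2. The list linked to Al resistance had 0.54 over 18 loci in Col and 1.22 over 17 in coi1-2. These medians are without the length adjustment, which is not given for coi1-2. By length group the median ratio ran from 0.999 to -0.89 in Col and from 0.49 to -0.53 in coi1-2. With 1 pair of libraries per genotype, these differences were not tested.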

How the data were processed

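Total RNA of roots was enriched for poly(A) RNA, primed with random hexamers and run on an Illumina sequencer, per the labels' protocols. No strand-keeping step is described, so reads of a gene and of one that overlaps it on the other strand cannot be separated. The deposited read counts are unique reads per transcript, the deposited RPKM values are those reads per kilobase and 1e6 reads, and the deposited coverage gives the covered percent of each transcript, all per the file headers. The aligner is not given in the sources used here, nor is the build.

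All isoforms of a locus were added up, both as reads and as RPKM. Ratios, the filter of 1 RPKM, the call rule and the length adjustment are those given in the text. They were computed with Python 3.11.15, pandas 2.3.3, numpy 2.4.6 and scipy 1.17.1. The call rule was run on simulated counts that held counting error only. These had no length trend, no PCR copies and no differences between preparations, so the run does not cover those. Depth was 6.93 M reads with Al and 7.80 M without Al. By locus code, 23189 of 23381 loci were found in the TAIR10.1 gene table, and 23185 of these overlapped that gene on the same strand.

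The members, lists, families and tests were chosen with earlier results of these data known, and the centring on the median was chosen because an earlier description gave a median below 0. Of the list entries 505 remained after 11 whose names matched no table were dropped, and some symbols were respelled; 433 passed the filter. The family patterns were revised once after a first version's counts had been seen, to remove false members. The pattern for pectate lyases and polygalacturonases still took in the inhibitor PGIP1 by its annotated name. The motif search with its fold limits, and the counts of abundant and of 1-library loci, were added after the values were seen. A choice of the promoters to print by their number of W-boxes was tried and dropped, since it left out genes without the motif. The rule for naming genes took the 15 highest and 15 lowest with at least 5 RPKM, up to 4 called members per list and 3 per family, and always ALMT1, AT1G51340, ALS3, STOP1, PGIP1, COI1 and MYC2. Not every gene it took is printed, and uncalled members and others named as examples were chosen after their values were seen. Alternatives were no centring, a TMM factor, the length trend, pseudocounts of 0.1 and 1, filters of 5 RPKM or none, loci with 1 isoform, and a 99.9% interval.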

Additional observations from a re-analysis of the deposited data

Results flagged for a closer look

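LOX4, a lipoxygenase gene of jasmonate synthesis, stood out because the genotypes moved in opposite directions with Al. Its relative log2 ratio was -1.39 in Col (38 reads with Al and 206 without Al). In coi1-2 the ratio was 1.196 (67 reads with Al and 33 without Al). After the length adjustment LOX4 had no call in Col (-0.42), so the opposite calls rest on the ratio without that adjustment. A length-adjusted ratio in coi1-2 is not given here. The difference was not tested, since each genotype has 1 pair of libraries.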

How the results depend on the processing

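Against 3764 higher and 3358 lower calls, RPKM as deposited without centring gave 1994 higher and 6169 lower, since the median of all loci then lay at -0.60. The other alternatives stayed within 1.5 times of both counts: from 2700 higher and 2666 lower with the length trend to 4015 higher with a pseudocount of 0.1 and 4118 lower with no filter. Of the called named genes, 14 were no longer called with the length trend, 10 with no centring and 4 with a pseudocount of 1, and none changed sign under any alternative run. Of the 60 counts of higher or lower genes on the lists, 30 moved by over 1.5 times with no centring, 14 with the length trend, 0 with the TMM factor and 2 to 8 under the other alternatives that were run on them. No paired analysis was possible because each group has 1 library, and for the same reason no replicate could be left out. Depth limits genes of few reads: 3 reads equal 0.433 CPM with Al and 0.385 CPM without Al.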
